A study of Mus musculus with 12 samples.

Results

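The 10 genes described here set or release the brakes on the G1 phase of the cell cycle. They are Btg2, Btg1, Cdkn1a, Cdkn1b, Cdkn1c, Mdm2, Ccng1, Ccnd1, Ccnd2 and Ccnd3, chosen by name out of 35385 gene symbols with a value in every library. The cells were oligodendrocyte progenitor cells (OPCs), which give rise to myelin-forming cells, made from mouse pluripotent stem cells (mPSC), grown with noggin, NT3, IGF-1 and cAMP, and left to attach for 1 h in a medium that permits differentiation. They were then exposed for 4 h to 1 of 3 quaternary ammonium compounds, each at its own IC75 (the concentration of 75% inhibition, of a readout the labels do not name), or to vehicle. The 4 groups were cetylpyridinium chloride (CPC), C12-C14-alkyl(ethylbenzyl)dimethylammonium chloride (AEBDAC), methyltrioctylammonium chloride (MTOAC) and the vehicle dimethyl sulfoxide, with 3 libraries each, numbered 1 to 3. The concentrations are not given in the labels, so the compounds are compared at matched time and nominal effect and not at matched dose. The labels do not say that libraries of a group came from separate cultures, so that p-values here rest on the spread between libraries, which may be technical. Levels are in TPM, the length-scaled share of a transcript in its library, so that fewer cells of a type and less RNA per cell cannot be told apart.

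D-type cyclins (Ccnd1, Ccnd2 and Ccnd3) are made in response to growth signals and activate the kinases CDK4 and CDK6, which phosphorylate the retinoblastoma protein and let a cell pass from G1 into S phase. The Cip/Kip inhibitors p21 (Cdkn1a), p27 (Cdkn1b) and p57 (Cdkn1c) bind cyclin and kinase complexes, and p27 is known to accumulate as OPCs leave the cycle. The transcription factor p53 induces Cdkn1a, Btg2, Ccng1 and Mdm2. MDM2 is the ubiquitin ligase that degrades p53, and cyclin G1 acts in the same feedback loop. BTG2 and BTG1 are antiproliferative adaptors that bring the CCR4-NOT deadenylase to messenger RNAs.

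All 10 genes passed the filter of at least 1 TPM in at least 3 libraries. In vehicle the order of mean levels was Ccnd1 (247 TPM), Cdkn1a (229), Ccng1 (182), Btg2 (133), Ccnd3 (85.1), Cdkn1b (31.8), Btg1 (20.5), Mdm2 (19.0), Cdkn1c (16.5) and Ccnd2 (9.94 TPM). Within that order only Btg2 over Ccnd3 and Ccnd3 over Cdkn1b were separated in all 3 vehicle libraries; every other neighbouring pair overlapped. All 8 OPC markers were tested, and the markers of that list summed to 1353 to 2411 TPM over the 12 libraries. Of the myelin markers Mog was at 0 in every library, and the 5 microglial and myeloid markers summed to at most 1.71 TPM. Vehicle library 1 stood apart: mitochondrial genes made up 86422 TPM of it and 147539 to 183001 TPM of the other 11 libraries, and its median tested gene stood at 3.93 on the log2(TPM + 1) scale, against 3.33 to 3.65. Fold changes of members are given without it, or as their range with each library left out in turn.

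**Figure D1:**
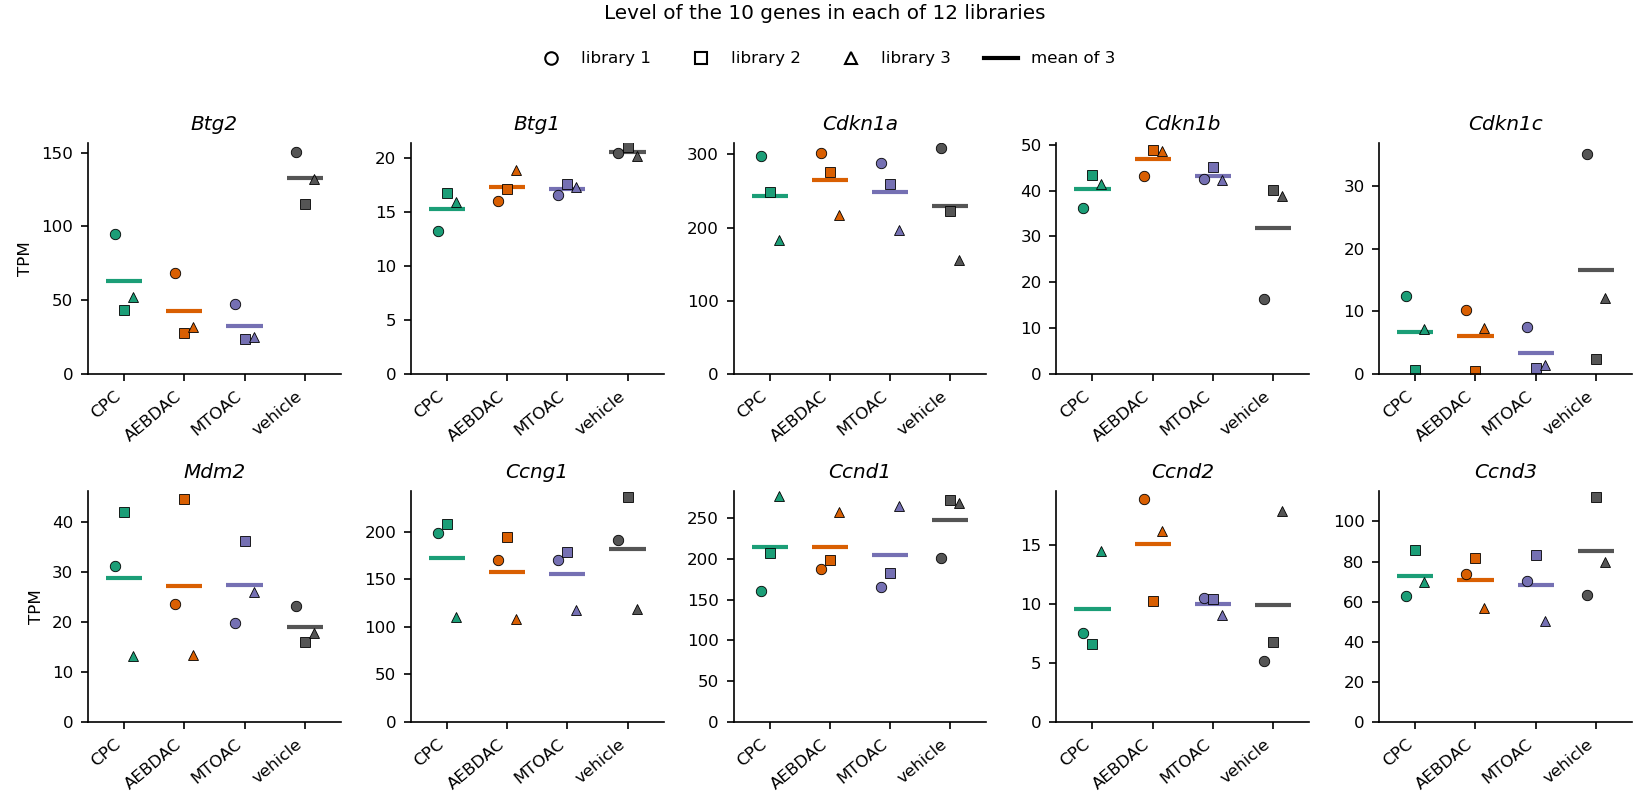
Level of each of the 10 genes (vertical axis, TPM, starting at 0) in the 3 libraries of each group. Symbols mark the library number and bars the mean of 3; Btg2 lies between 23.6 and 94.7 TPM with the compounds and between 115 and 150.3 TPM in vehicle, while most other genes overlap between groups.

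Btg2 was lower with every compound, and it is the 1 gene of the 10 that passed the test against vehicle. It stood at 94.7, 43.0 and 51.8 TPM in CPC libraries 1 to 3, at 68.3, 27.7 and 32.0 TPM in AEBDAC libraries, at 47.6, 23.6 and 25.1 TPM in MTOAC libraries, and at 150.3, 115 and 132 TPM in vehicle libraries. No library of any compound reached the lowest vehicle library, and the means were 63.2 ± 27.7 TPM with CPC, 42.7 ± 22.3 TPM with AEBDAC and 32.1 ± 13.4 TPM with MTOAC, against 133 ± 17.5 TPM in vehicle (SD, n = 3 each). On the log2(TPM + 1) scale the difference from vehicle was -2.08 ± 0.38 (SE) for MTOAC (limma, adjusted p = 0.0146), -1.72 ± 0.38 for AEBDAC (limma, adjusted p = 0.0539) and -1.13 ± 0.38 for CPC (limma, adjusted p = 0.25). MTOAC was the only compound with a call. Since no compound library reached the vehicle range, Btg2 was lower in 3 of 3 same-numbered pairs with each compound, as it would be in any pairing. The pairs thus add no further evidence. Library numbers paired CPC and vehicle, and with the number as a block the CPC difference passed (adjusted p = 0.0304), where 1.53% of all tested genes did; this call was lost when quantile normalization was added (adjusted p = 0.0786).

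The median of all 12009 tested genes lay at -0.17, -0.16 and -0.22 log2 for CPC, AEBDAC and MTOAC against vehicle. Relative to it Btg2 lay at -0.96 with CPC, -1.56 with AEBDAC and -1.86 with MTOAC. The MTOAC difference ranked 19 from the lowest of the 12009 fold changes, the AEBDAC difference 52 and the CPC difference 165. Without vehicle library 1 the differences were -1.98 for MTOAC (adjusted p = 0.0458), -1.62 for AEBDAC (0.159) and -1.04 for CPC (0.503). Without MTOAC library 2 the MTOAC call was lost (adjusted p = 0.0553), and it was also lost with only these 2 groups in the fit (0.0621). Without AEBDAC library 1 the AEBDAC difference was -2.11 (adjusted p = 0.0336). Btg2 lies on chromosome 1 (GRCm38, 134075170 to 134079120, minus strand), and no other annotated gene overlaps it. Beside the fall of Btg2, the 8 OPC markers summed to 1641 to 1789 TPM with CPC, 1558 to 1786 TPM with AEBDAC and 1353 to 1433 TPM with MTOAC, against 2029.8 to 2411 TPM in vehicle, and the 5 neuronal markers, mostly Map2, to 330.1 to 397, 313 to 353 and 262 to 348 TPM, against 433 to 483 TPM. Olig1 carried most of the OPC difference, at 704 to 855 TPM with CPC, 570 to 819 TPM with AEBDAC and 456 to 613 TPM with MTOAC, against 1016 to 1284 TPM in vehicle. The OPC list was split with MTOAC. Olig1, Gpr17 (10.5 to 16.0 TPM, against 50.7 to 63.8 TPM in vehicle) and Pdgfra (11.5 to 16.8 TPM, against 29.3 to 35.6 TPM) lay under every vehicle library. Olig2, Sox10, Cspg4, Ptprz1 and Lhfpl3 overlapped with vehicle. Of these Lhfpl3 was not lower, at 108 to 139 TPM with MTOAC, against 76.7 to 111 TPM in vehicle, nor was Ptprz1, at 279 to 415 TPM, against 266 to 397 TPM. Myelin markers, mostly Cnp, summed to 37.3 to 51.4 TPM with CPC, 36.3 to 51.6 TPM with AEBDAC and 35.4 to 47.1 TPM with MTOAC. In vehicle they summed to 52.7 to 74.0 TPM. The part of these markers in the fall of Btg2 was not tested.

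Of the 10 genes, 0 of 10 were called with CPC, where 0.0666% of all tested genes were, 0 of 10 with AEBDAC (1.27% of all), and 1 of 10 with MTOAC (6.54% of all), which was lower, as were 5.75% of all tested genes. The called genes split into 4 higher and 4 lower with CPC, 47 higher and 106 lower with AEBDAC, and 95 higher and 690 lower with MTOAC. With quantile normalization, which sets the median gene near 0, the splits were 12 and 4, 96 and 86, and 213 and 217. At an unadjusted p under 0.05 there were 2, 2 and 1 of the 10 with CPC, AEBDAC and MTOAC, against 13.6%, 19.2% and 24.4% of all tested genes. The median fold change of the 10 was -0.14, -0.20 and -0.22 log2, beside -0.17, -0.16 and -0.22 for all tested genes, so that as a list they lay close to the median gene. The compounds share the vehicle libraries, and their fold changes against vehicle are not independent of each other.

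**Figure D2:**
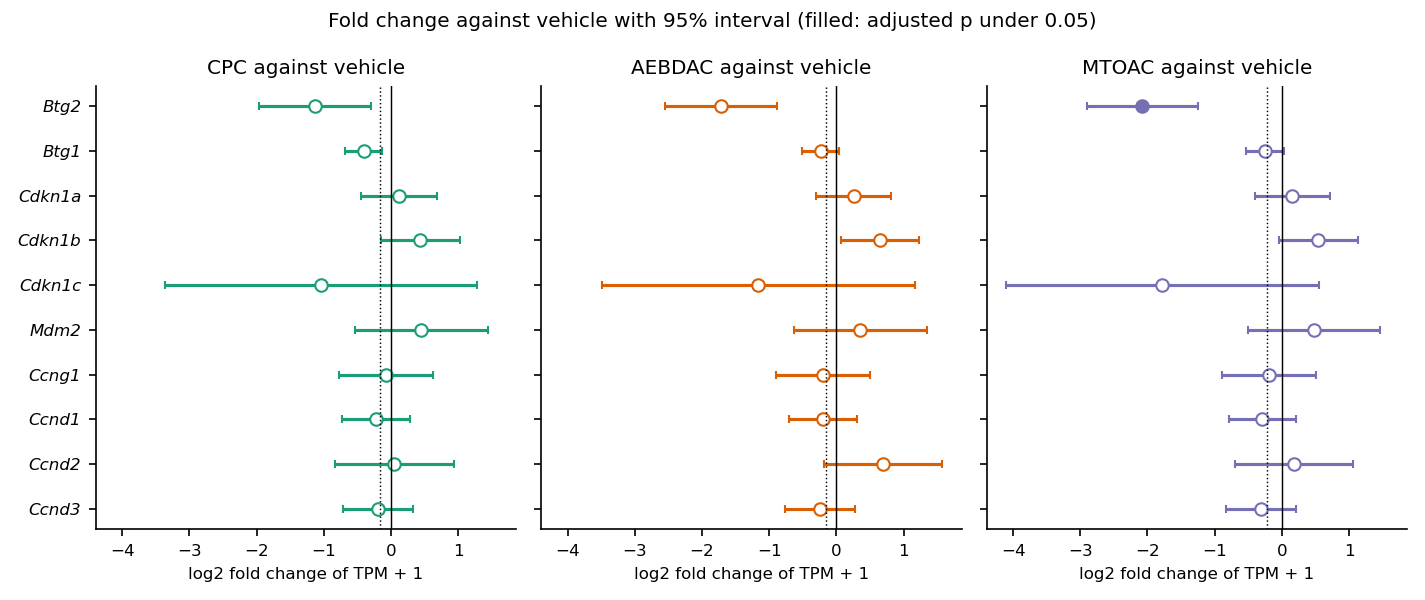
Log2 fold change of TPM + 1 (horizontal axis) of each gene against vehicle for the 3 compounds, with its 95% interval from limma; filled points passed the test. The dotted line is the median of all tested genes. Btg2 with MTOAC, at -2.08, is the 1 filled point, and the intervals of Cdkn1c are the widest.

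Btg2 and 3 other p53 targets of the set are shown by the 250 bases before their annotated start sites, since p53 is known to induce each of these genes. Sequences are from the RefSeq promoter table (GRCm38.p6), in which 7 of the 10 genes had a window. Each is read 5′ to 3′ on the strand of the gene, and capitals mark matches on either strand to the p53 decamer consensus, the cAMP response element TGACGTCA or its shorter core TGACG, the AP-1 site TGANTCA, the E2F site TTTCCCGC, the E-box CACGTG, the GC box GGGCGG or the CCAAT box.

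Btg2, chr1:134079156-134079405, minus strand: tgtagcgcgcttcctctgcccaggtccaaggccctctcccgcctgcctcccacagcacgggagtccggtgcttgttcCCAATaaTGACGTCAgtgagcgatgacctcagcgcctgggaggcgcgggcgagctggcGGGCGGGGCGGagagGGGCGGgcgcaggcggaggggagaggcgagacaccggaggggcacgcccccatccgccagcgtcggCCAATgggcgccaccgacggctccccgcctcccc

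Cdkn1a, chr17:29090729-29090978, plus strand: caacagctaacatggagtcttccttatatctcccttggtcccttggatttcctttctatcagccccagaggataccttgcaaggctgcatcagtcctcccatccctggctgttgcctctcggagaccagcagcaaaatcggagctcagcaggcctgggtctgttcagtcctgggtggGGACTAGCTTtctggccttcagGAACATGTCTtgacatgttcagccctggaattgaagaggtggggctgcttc

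Ccng1, chr11:40755287-40755536, minus strand: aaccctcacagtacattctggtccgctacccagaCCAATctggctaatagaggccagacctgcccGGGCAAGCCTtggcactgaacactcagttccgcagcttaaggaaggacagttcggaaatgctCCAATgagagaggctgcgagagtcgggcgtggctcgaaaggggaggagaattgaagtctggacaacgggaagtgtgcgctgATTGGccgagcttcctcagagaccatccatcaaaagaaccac

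Mdm2, chr10:117710759-117711008, minus strand: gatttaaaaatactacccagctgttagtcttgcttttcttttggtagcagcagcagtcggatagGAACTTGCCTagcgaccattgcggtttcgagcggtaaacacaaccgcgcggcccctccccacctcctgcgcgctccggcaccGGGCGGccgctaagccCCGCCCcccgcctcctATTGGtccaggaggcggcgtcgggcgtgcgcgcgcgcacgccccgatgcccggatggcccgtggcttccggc

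The Btg2 window held the cAMP response element TGACGTCA at -166 to -159 from the start site. That element was found in 1.55% of the 32851 promoter windows of this length, and in none of the other windows of the set. Btg2 also held 3 GC boxes, of which the pair at -115 to -105 overlap by a base, and CCAAT boxes at -173 and -34; the GC box was found in 32.7% and the CCAAT box in 33.8% of all windows. The AP-1, E2F and E-box motifs, found in 6.75%, 0.895% and 6.02% of all windows, had no match in the 9 windows of the set. The short core TGACG lies within TGACGTCA on both strands and was found in 17.8% of all windows. The p53 decamer was matched in 7.13% of all windows. It was matched at -73 and -51 in the upstream window of Cdkn1a, at -185 in Ccng1 and at -186 in Mdm2, and not in the Btg2 window. Cdkn1a had a second window, not printed here, before a downstream start site at 29093769. That window held 2 GC boxes and no p53 match, so the Cdkn1a matches belong to the upstream start site only. A match describes letters in these windows and was not tested for binding, and p53 sites outside them are not covered.

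Btg1, the close relative of Btg2, was narrowly spread. It stood at 13.3, 16.7 and 15.9 TPM in CPC libraries 1 to 3, at 16.0, 17.1 and 18.8 TPM in AEBDAC libraries, at 16.6, 17.6 and 17.3 TPM in MTOAC libraries, and at 20.5, 21.02 and 20.1 TPM in vehicle libraries. Every compound library lay under every vehicle library. The log2 differences were -0.41 ± 0.13 (SE) for CPC, -0.24 ± 0.13 for AEBDAC and -0.25 ± 0.13 for MTOAC, and none passed (limma, adjusted p = 0.228, 0.34 and 0.266). Relative to the median gene they were -0.24, -0.07 and -0.03, and quantile normalization gave -0.22, -0.06 and -0.01. The Btg1 differences were -0.41, -0.24 and -0.25 without vehicle library 1. Groups that did not overlap were found for 2 of the 10 genes with CPC (20.6% of all tested genes), 3 with AEBDAC (24.9%) and 3 with MTOAC (26.4%). These were Btg2 and Btg1 with each compound and Cdkn1b with AEBDAC and MTOAC. The 2 Btg1 copies annotated on the X chromosome were listed at 0 in every library.

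The ratio of Btg2 to Btg1 shows how far apart the pair moved. It was 7.15, 2.56 and 3.26 in CPC libraries 1 to 3, 4.27, 1.62 and 1.70 in AEBDAC libraries, 2.87, 1.34 and 1.45 in MTOAC libraries, and 7.34, 5.49 and 6.55 in vehicle libraries. CPC library 1 lay within the vehicle range and the other 8 compound libraries below it.

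Cdkn1a, which encodes p21 and is the most used readout of p53, did not pass with any compound. It stood at 298, 249 and 183 TPM in CPC libraries 1 to 3, at 303, 276 and 218 TPM in AEBDAC libraries, at 289, 260.0 and 197 TPM in MTOAC libraries, and at 308, 222 and 156 TPM in vehicle libraries. All groups overlapped. The log2 difference from vehicle was 0.12 for CPC (95% interval -0.44 to 0.68), 0.25 for AEBDAC (-0.31 to 0.82) and 0.16 for MTOAC (-0.41 to 0.72), with adjusted p of 0.88, 0.626 and 0.762 (limma). Without vehicle library 1 these were 0.36, 0.50 and 0.40, and without vehicle library 3 they were -0.13, 0.0056 and -0.09. These 95% intervals, from the fit without the library number, hold both no change and a rise of more than 0.5 log2. Library numbers paired CPC and vehicle, and with the number as a block the CPC difference had an SE of 0.10, against 0.26 without it. It did not pass there either (limma, adjusted p = 0.552).

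Ccng1 and Mdm2, the p53 targets that feed back on p53, did not pass either. Ccng1 stood at 199, 208 and 110.4 TPM in CPC libraries 1 to 3, at 169.7, 194 and 108 TPM in AEBDAC libraries, at 170.5, 178 and 118 TPM in MTOAC libraries, and at 191, 236 and 119 TPM in vehicle libraries. Its log2 differences were -0.07 (95% interval -0.78 to 0.63), -0.19 (-0.90 to 0.51) and -0.19 (-0.89 to 0.51). For Ccng1 with CPC the SE was 0.32 in this fit and 0.09 with the library number as a block (limma, adjusted p = 0.697 with the block). Mdm2 stood at 31.2, 42.0 and 13.2 TPM in CPC libraries, at 23.7, 44.7 and 13.4 TPM in AEBDAC libraries, at 19.8, 36.3 and 25.9 TPM in MTOAC libraries, and at 23.3, 16.0 and 17.8 TPM in vehicle libraries. Library 2 was the highest for Mdm2 with each compound and the lowest in vehicle, and the log2 differences of 0.45, 0.36 and 0.48 had standard errors of 0.45. Without the library 2 of the compound the Mdm2 differences were 0.12, -0.07 and 0.26, and without vehicle library 1 they were 0.60, 0.50 and 0.63. With 1 library left out, the Ccng1 differences ran from -0.35 to 0.22 for CPC, -0.47 to 0.05 for AEBDAC and -0.47 to 0.02 for MTOAC. The adjusted p lay between 0.561 and 0.945 for both genes (limma).

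Cdkn1b, which encodes p27, stood at 36.2, 43.5 and 41.4 TPM in CPC libraries 1 to 3, at 43.1, 48.9 and 48.7 TPM in AEBDAC libraries, at 42.6, 45.1 and 42.3 TPM in MTOAC libraries, and at 16.3, 40.2 and 38.9 TPM in vehicle libraries. Vehicle library 1, the library that stood apart, was lower than the other 11. The log2 differences were 0.43 for CPC, 0.65 for AEBDAC and 0.54 for MTOAC, each with an SE of 0.27, and none passed (limma, adjusted p = 0.50, 0.218 and 0.244). Without vehicle library 1 they were 0.02, 0.24 and 0.13, each with an SE of 0.12.

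Cdkn1c, the imprinted gene of p57, varied most within groups. It stood at 12.4, 0.635 and 7.22 TPM in CPC libraries 1 to 3, at 10.2, 0.506 and 7.35 TPM in AEBDAC libraries, at 7.42, 0.892 and 1.43 TPM in MTOAC libraries, and at 35.2, 2.31 and 12.1 TPM in vehicle libraries. Each same-numbered pair was lower with compound than in vehicle, yet the groups overlapped. Library 2 was the lowest of its group in all 4. The log2 differences of -1.04, -1.16 and -1.78 had an SE of 1.06 and did not pass (limma, adjusted p = 0.698, 0.585 and 0.333). Without vehicle library 1 they were -0.22, -0.34 and -0.96. For Cdkn1c with CPC the SE fell to 0.38 with the library number as a block, and the difference did not pass there either (limma, adjusted p = 0.17).

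The D cyclins did not pass with any compound. Ccnd1 stood at 160.0, 208 and 277 TPM in CPC libraries 1 to 3, at 187, 199 and 257 TPM in AEBDAC libraries, at 166, 183 and 265 TPM in MTOAC libraries, and at 201, 272 and 268 TPM in vehicle libraries. Its log2 difference was -0.22 for CPC (95% interval -0.73 to 0.28), -0.21 for AEBDAC (-0.71 to 0.30) and -0.29 for MTOAC (-0.79 to 0.22). For Ccnd1 with CPC the SE was 0.23 in this fit and 0.11 with the library number as a block (limma, adjusted p = 0.31 with the block). Ccnd3 stood at 62.9, 85.5 and 69.8 TPM in CPC libraries, at 73.7, 82.0 and 56.7 TPM in AEBDAC libraries, at 70.4, 83.3 and 50.5 TPM in MTOAC libraries, and at 63.4, 112 and 79.7 TPM in vehicle libraries. Its differences were -0.20, -0.24 and -0.31. Ccnd2, the lowest of the 3, ranged from 5.16 to 18.9 TPM over the 12 libraries, with differences of 0.05, 0.70 and 0.18. With 1 library left out at a time, the Ccnd2 difference ran from -0.27 without vehicle library 1 to 0.54 without vehicle library 3 for CPC, and without the same libraries from 0.37 to 1.18 for AEBDAC and from -0.14 to 0.67 for MTOAC. The Ccnd3 differences ran from -0.39 to 0.02, -0.43 to -0.02 and -0.50 to -0.09, lowest without vehicle library 1 and nearest 0 without vehicle library 2. Without vehicle library 1 the Ccnd1 differences were -0.36, -0.35 and -0.43, and the Ccnd1 values nearest 0, each without library 1 of the compound, were -0.03, -0.11 and -0.15. Single libraries thus set the size of the Ccnd2 and Ccnd3 differences, and the sign of Ccnd2 with CPC and MTOAC and of Ccnd3 with CPC. Relative to the median gene Ccnd1 lay at -0.06, -0.04 and -0.07 and Ccnd3 at -0.03, -0.08 and -0.09.

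Ccnd1 made up most of the D cyclin transcript in every library, from 66.1% in MTOAC library 2 to 81.6% in MTOAC library 3. Ccnd3 made up 15.6% to 30.1% and Ccnd2 1.73% to 6.76%. The 3 together summed to 230.4, 299.6 and 362 TPM in CPC libraries 1 to 3, to 280, 291 and 330.0 TPM in AEBDAC libraries, to 247, 277 and 324 TPM in MTOAC libraries, and to 270.1, 391 and 366 TPM in vehicle libraries, with overlap between all groups. Cdkn1a made up 75.3% to 86.0% of the summed Cip/Kip transcript, the lowest share being in vehicle library 3. Exons of Ccnd3 overlap those of Bysl on the other strand, and exons of Ccnd1 those of LTO1. Exons of Cdkn1a, Cdkn1c and Ccnd2 overlap those of noncoding genes on the other strand. Without strand information, reads from these shared stretches cannot be told apart, and the length of the stretches was not measured. Bysl was listed at 19.4 to 23.5 TPM and LTO1 at 1.09 to 6.71 TPM.

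The library number took a larger share of the variation than the compound did for every gene of the set other than Btg2, Btg1 and Cdkn1b. Cdkn1a was highest in library 1 and lowest in library 3 in all 4 groups, Ccng1 highest in library 2 and lowest in library 3 in all 4, and Cdkn1c and Btg2 highest in library 1 and lowest in library 2 in all 4. That is 4 of the 10 genes with a single order of the numbers in every group, against 607 of the 12009 tested genes, or 5.05%. The number took 91.8% of the sum of squares of Ccng1 on the log2 scale, 83.9% of Cdkn1a, 72.6% of Ccnd1 and 72.1% of Cdkn1c, while the compound took 4.78%, 8.95%, 14.97% and 20.9% of the same genes. For Btg2 the shares were 76.5% for the compound and 20.3% for the number, and for Btg1 74.8% and 13.1%. Over all tested genes the median share was 21.8% for the number and 29.7% for the compound.

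**Figure D3:**
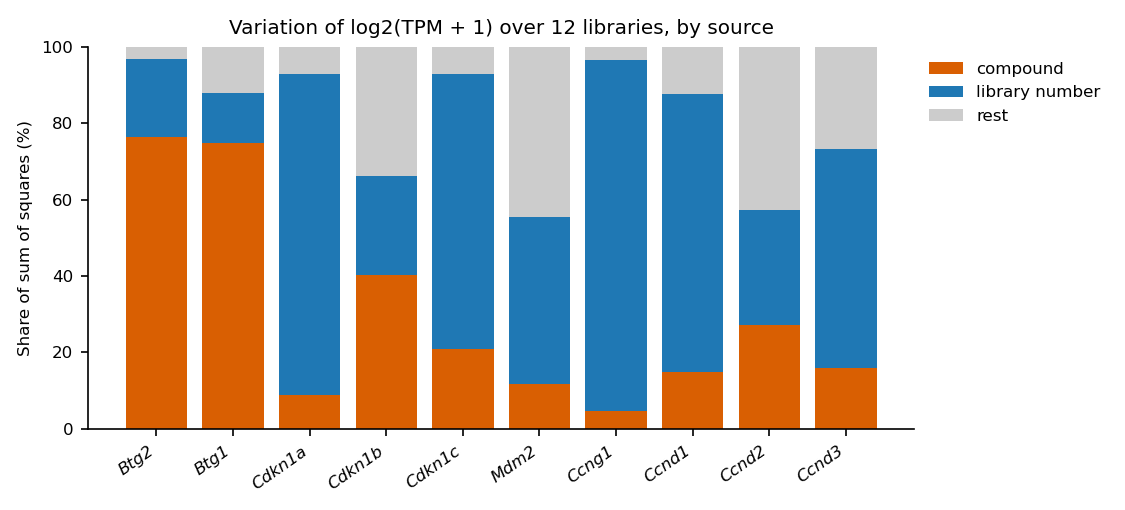
Share of the sum of squares of log2(TPM + 1) over 12 libraries (vertical axis, %) that goes with the compound, with the library number and with neither, for each gene. The compound takes 76.5% for Btg2 and 74.8% for Btg1, and the number 91.8% for Ccng1 and 83.9% for Cdkn1a.

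An F test of the number with the compound in the model, chosen after the values were seen, called 5 of the 10 genes, where 8.06% of all tested genes were called. Adjusted p was 0.000955 for Ccng1, 0.00298 for Cdkn1c, 0.00516 for Cdkn1a, 0.0105 for Btg2 and 0.0191 for Ccnd1 (limma). Relative to library 1, library 3 differed by -0.68 log2 for Cdkn1a and -0.68 for Ccng1 and by 0.58 for Ccnd1. Library 2 differed by -2.88 log2 for Cdkn1c and -0.94 for Btg2. Ccnd1 was the 1 gene of the 5 that was higher in library 3 than in library 1. Without vehicle library 1 the test called 6 of the 10, these 5 and Ccnd3. Without CPC library 1 it called 3, Cdkn1a, Cdkn1c and Ccng1.

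**Figure D4:**
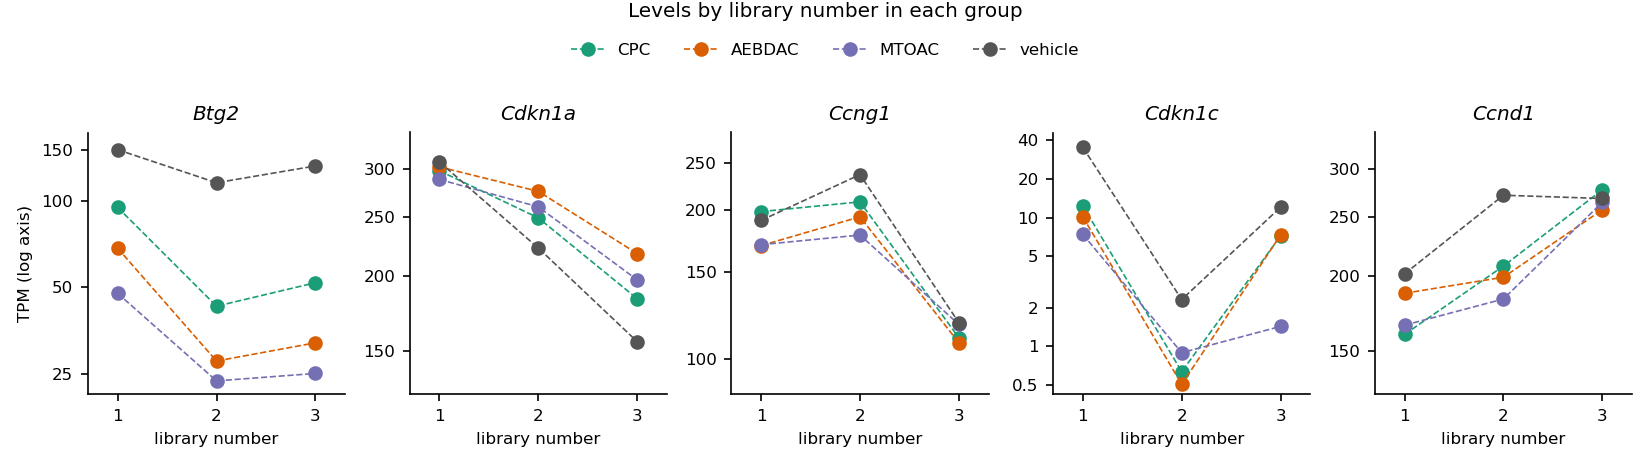
Level (vertical log axis, TPM) by library number in each group for the 5 genes called by the F test of the number; dashed lines join the libraries of a group. Cdkn1a is lowest in library 3 of all 4 groups, at 156 to 218 TPM, and Cdkn1c lowest in library 2, at 0.506 to 2.31 TPM.

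The ratio of Ccnd1 to Cdkn1a, the most abundant cyclin and inhibitor of the set, was 0.537, 0.832 and 1.51 in CPC libraries 1 to 3, 0.618, 0.721 and 1.18 in AEBDAC libraries, 0.574, 0.704 and 1.34 in MTOAC libraries, and 0.653, 1.22 and 1.72 in vehicle libraries. It was lowest in library 1 and highest in library 3 of each group. Among 28 other p53 targets 10 were called by the number, where 8.06% of all tested genes were. Of these 10, 9 were lower in library 3 than in library 1, as were 580 of the 968 genes called by the number. In the other lists, described below, the number called 4 of 14 FOXO genes and 2 of 7 INK4 and other inhibitors. It called 3 of 24 G1 kinase, pocket protein and E2F genes, 0 of 12 p53 regulators and 0 of 11 BTG and deadenylase genes. The labels do not say what a number marks. Astrocyte markers summed to 29.0 to 43.7 TPM in libraries numbered 1, 15.2 to 23.1 TPM in those numbered 2 and 36.5 to 51.8 TPM in those numbered 3. Among them S100b was lowest in library 2 and highest in library 3 of all 4 groups, while Aqp4, at most 1.04 TPM in any library, was lowest in library 3 of all 4. Of the OPC markers Sox10 was lowest in library 2 of all 4 groups, at 7.15 to 19.6 TPM, against 21.9 to 61.0 TPM in libraries 1 and 3. Gpr17 too was lowest in library 2 of all 4, and the other OPC markers were not. Myelin markers, mostly Cnp, had the order of Btg2 and Cdkn1c in all 4 groups, highest in library 1 and lowest in library 2: they summed to 51.4, 37.3 and 38.7 TPM in CPC libraries 1 to 3, 51.6, 36.3 and 40.9 TPM in AEBDAC libraries, 47.1, 35.4 and 38.9 TPM in MTOAC libraries, and 74.0, 52.7 and 57.5 TPM in vehicle libraries. Mesenchymal markers summed to 33.0 to 46.8, 35.7 to 54.8 and 50.7 to 91.5 TPM, almost all of it Acta2, and the collagens and Dcn were each under 1 TPM in every library. Their part in the pattern by number was not tested.

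Between compounds no gene of the set passed, and 0% of all tested genes did in AEBDAC against CPC, MTOAC against CPC and MTOAC against AEBDAC (limma), with 211, 449 and 307 genes at an unadjusted p under 0.05. CPC carries a pyridinium ring with a long alkyl chain, AEBDAC an ethylbenzyl ring, and MTOAC octyl chains without a ring. Btg2 differed by -0.94 log2 between MTOAC and CPC (95% interval -1.77 to -0.12, unadjusted p = 0.029, limma adjusted p = 1), by -0.59 between AEBDAC and CPC (-1.41 to 0.24) and by -0.36 between MTOAC and AEBDAC (-1.19 to 0.47). In each of the 3 numbers Btg2 was highest with CPC and lowest with MTOAC among the compounds. For Cdkn1a the differences between compounds were 0.04, 0.14 and -0.10 for MTOAC against CPC, AEBDAC against CPC and MTOAC against AEBDAC, and each interval reached at least 0.42 log2 in both directions. Compounds that differ in dose as well as structure are compared here, and a missed threshold does not show that they act alike.

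Other genes of the pathway were read from 6 lists. Among all tested genes 0.0666% were called with CPC, 1.27% with AEBDAC and 6.54% with MTOAC, of which 5.75% were lower with MTOAC. With the library number as a block 1.53% were called with CPC. Values of list genes are not given without vehicle library 1, where 305 genes were called with MTOAC, against 785 with it. Of 28 other p53 targets 0 rose or fell with CPC and AEBDAC, and with MTOAC 1 rose, 1 fell and 26 did not pass. Sesn2, a stress-induced inhibitor of mTORC1 that other stress factors also induce, rose to 118 ± 18.4 TPM with MTOAC, against 63.2 ± 14.9 TPM in vehicle (SD, n = 3; limma, adjusted p = 0.0359). Psrc1, a spindle protein, fell to 55.6 ± 6.83 TPM, against 84.0 ± 7.38 TPM (adjusted p = 0.0263). The list's median was -0.12, -0.22 and -0.28 log2 for CPC, AEBDAC and MTOAC, beside -0.17, -0.16 and -0.22 for all tested genes. Of 12 tested regulators of p53, p53 itself among them, 1 fell with MTOAC, the ubiquitin ligase gene Rfwd3 (-0.72 log2, adjusted p = 0.0348), and the other 11 did not pass. None of the 12 was called with CPC or AEBDAC, and their medians were -0.20, -0.33 and -0.29 log2. With the library number as a block, 1 of the 28 p53 targets fell with CPC, Trp53inp1 (-0.77 log2, limma, adjusted p = 0.0334), an autophagy and p53 cofactor gene named after its values were seen. At an unadjusted p under 0.05 there were 5, 7 and 9 of the 28 targets for CPC, AEBDAC and MTOAC, and 2 of the 12 regulators for each, beside 13.6%, 19.2% and 24.4% of all tested genes.

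Downstream of the D cyclins, 24 G1 kinases, pocket proteins and E2F genes were tested. With MTOAC 1 rose, 3 fell and 20 did not pass, with AEBDAC 1 fell, and with CPC none was called. Of all tested genes 6.54%, 1.27% and 0.0666% were called with MTOAC, AEBDAC and CPC. Ccne1, cyclin E1 of the step into S phase, fell to 9.05 ± 1.46 TPM with MTOAC and 9.59 ± 2.11 TPM with AEBDAC, against 22.4 ± 2.56 TPM in vehicle (SD, n = 3; limma, adjusted p = 0.0119 and 0.0324). E2f8, a repressor of the E2F family, rose with MTOAC to 11.2 ± 2.07 TPM, against 4.97 ± 1.21 TPM in vehicle (adjusted p = 0.0394). E2f2 and Tfdp1, an activator E2F and its dimer partner, had log2 differences of -0.90 and -0.41 with MTOAC (limma, adjusted p = 0.0391 and 0.0481). The median of all tested genes was -0.22 log2 with MTOAC. The list's median was -0.25, -0.37 and -0.40 log2 for CPC, AEBDAC and MTOAC, lower than the median of all tested genes in each. With the block E2f8 rose and Ccne1 fell with CPC too (0.81 and -0.93 log2, limma, adjusted p = 0.045 and 0.0253). At an unadjusted p under 0.05 there were 8, 13 and 13 of the 24 (13.6%, 19.2% and 24.4% of all tested genes). E2f8 shares exon sequence with a noncoding gene of the opposite strand.

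Of 7 INK4 and other cyclin kinase inhibitors 3 fell with MTOAC, 1 with AEBDAC and 0 with CPC. For these and the 2 lists that follow, 6.54%, 1.27% and 0.0666% of all tested genes were called with MTOAC, AEBDAC and CPC. Cdkn2c, the INK4 inhibitor p18, fell to 33.9 ± 2.72 TPM with MTOAC, against 62.5 ± 9.43 TPM in vehicle (SD, n = 3; limma, adjusted p = 0.016), and Cdkn2d, p19, to 30.7 ± 1.51 TPM, against 50.5 ± 11.6 TPM (adjusted p = 0.0401). Cdkn3, a phosphatase of cyclin-dependent kinases that is made in proliferating cells, fell to 14.2 ± 1.34 TPM with MTOAC and 14.5 ± 1.06 TPM with AEBDAC, against 35.2 ± 7.96 TPM (adjusted p = 0.0165 and 0.0404). The list's median was -0.36, -0.43 and -0.55 log2 for CPC, AEBDAC and MTOAC. Of 11 tested BTG and TOB relatives and deadenylase partners 1 fell with MTOAC, Cnot3 (-1.05 log2, adjusted p = 0.0173), a subunit of the complex that BTG2 recruits, whose exons overlap those of Leng1 on the other strand. None of these 11 was called with CPC or AEBDAC, and their medians were -0.23, -0.10 and -0.26 log2. Of 14 FOXO factors and targets 2 fell with MTOAC, Foxo4 (-0.66) and the BH3-only gene Bcl2l11 (-1.10; adjusted p = 0.0389 and 0.04), and 0 were called with the other compounds. With the block 1 of the 14 fell with CPC, Txnip (-1.49 log2, limma, adjusted p = 0.0444), a thioredoxin inhibitor gene named after its values were seen. The list's medians were -0.04, -0.00090 and -0.07 log2. At an unadjusted p under 0.05 there were 3, 4 and 4 of the 7 inhibitors, 3, 1 and 3 of the 11 BTG and deadenylase genes and 4, 4 and 3 of the 14 FOXO genes for CPC, AEBDAC and MTOAC, where 13.6%, 19.2% and 24.4% of all tested genes had one.

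**Figure D5:**
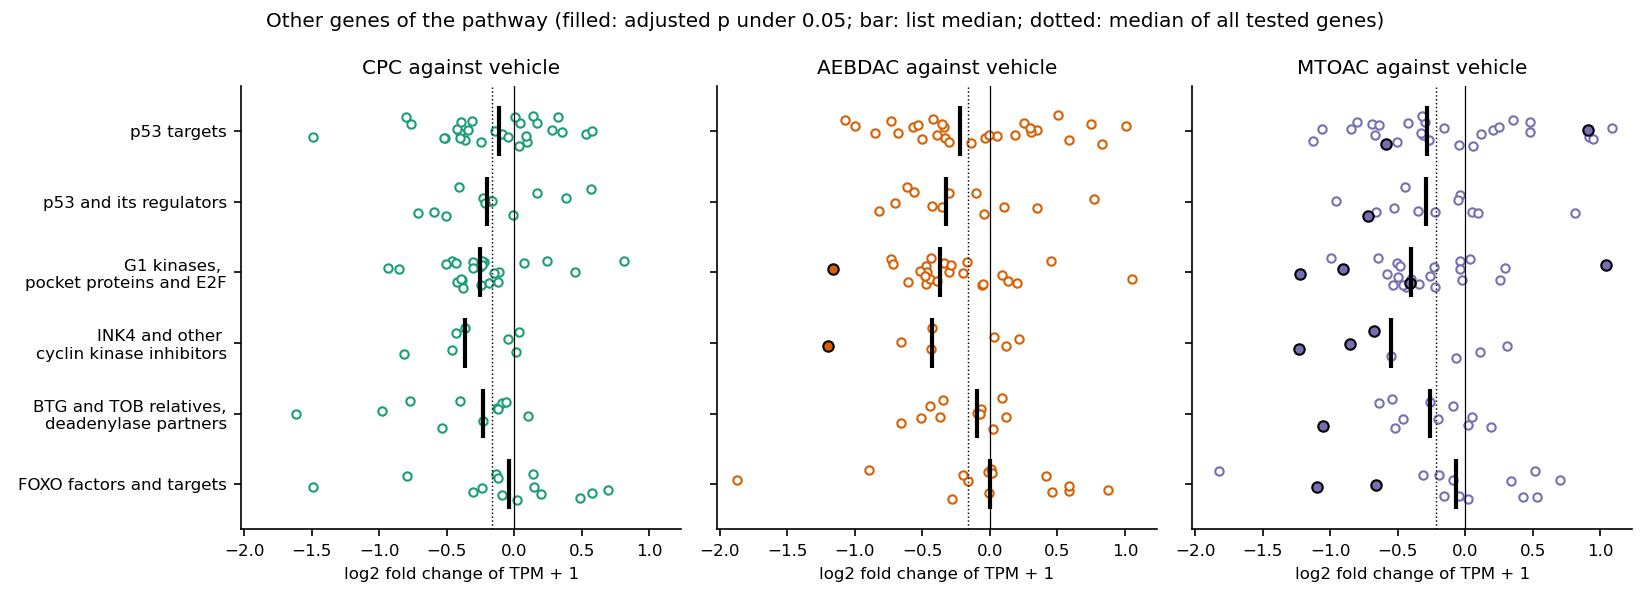
Log2 fold change of TPM + 1 against vehicle (horizontal axis) of each tested gene of the 6 lists, with the 10 genes of the set left out; filled points passed the test, bars are list medians and the dotted line is the median of all tested genes. With MTOAC 3 of 7 INK4 and other inhibitors are filled, all below 0, and the p53 targets hold 1 filled point on each side of 0. Of all tested genes 6.54% passed with MTOAC.

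The tested genes whose pattern was most like that of Btg2 over the 12 libraries, among 7950 named genes that averaged 5 TPM or more, were Snn, Rfx5 and Gpr17. Their root mean square distance from Btg2, after centring each gene on its vehicle mean, was 0.308, 0.323 and 0.338 log2. Snn averaged 40.7 TPM with CPC, 32.2 with AEBDAC and 27.7 with MTOAC, against 89.3 TPM in vehicle. Gpr17, a receptor of committed OPCs, averaged 33.0, 23.5 and 13.6 TPM, against 59.0 TPM. Rfx5 averaged 9.35, 6.82 and 5.37 TPM, against 21.3 TPM. Snn shares exon sequence with Litaf and Txndc11, Gpr17 with Lims2 and Rfx5 with a noncoding gene, all on the opposite strand.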

How the data were processed

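Poly(A) RNA was sequenced as 150 bp read pairs to a stated depth of 20 M or more reads, per the labels' protocols. Salmon and the build mm10 were used, per the submitters' processing notes; its version and annotation: not given in the sources used here. Per library the authors deposited TPM by gene symbol, summing to between 772637 and 797758. TPM keep no depth, so the depth is unknown beyond that minimum.

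A gene entered the test (12009 did) when 3 or more libraries held 1 TPM or more. Testing was done with limma 3.58.1 in R 4.3.3 (trend, robust) on log2(TPM + 1), which understates the change of low genes. All 12 libraries entered 1 fit without covariates, and two-sided p-values were Benjamini-Hochberg adjusted for each comparison, with calls under 0.05. An exact test of 3 against 3 cannot go below 0.1. The alternatives tried were other pseudocounts, filters, scalings, moderation and sets of libraries, and the library number as a block.

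The members, lists and tests were chosen with earlier results of these data known. Named were the 10 genes, at most 4 called genes a list, and the 3 nearest patterns of each called member. Deviations of same-numbered libraries from group means correlated at over 0.1 in all 3 pairs for CPC and vehicle (0.34, 0.31 and 0.23), AEBDAC and CPC, and MTOAC and AEBDAC, so that numbers paired these libraries by that rule; numbers come from the sample titles. Coordinates and overlaps are from GENCODE M21 (GRCm38), which held 34858 of the symbols. No libraries were identical.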

Additional observations from a re-analysis of the deposited data

How the results depend on the processing

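Over the 60 fold changes, 6 comparisons of 10 genes, none changed sign with a call under the 15 alternatives of each. The call of Btg2 with MTOAC was lost under 2 alternatives. Against vehicle a call was gained under 4 alternatives by Btg2 with AEBDAC and under 2 by Cdkn1c with MTOAC. Btg2 with CPC and Cdkn1a with AEBDAC gained one under 1 alternative each. With the replicate block the members called were 1 for CPC (Btg2), 1 for AEBDAC (Btg2, adjusted p = 0.00389) and 2 for MTOAC (Btg2, 0.00105, and Cdkn1c, 0.0168), and all genes called 184, 1072 and 1904, against 8, 153 and 785 without it. With the replicate block and quantile normalization they were 0, 2 (Btg2, and Cdkn1a higher, 0.0437) and 2 members, and 115, 907 and 1194 genes. The block changed no other call of a member, and between compounds it called 0 genes in all 3 comparisons. The numbers did not meet the pairing rule for AEBDAC or MTOAC against vehicle, nor for MTOAC against CPC; 4, 2 and 5 of 6 libraries correlated best with their own number. Quantile normalization called 16 genes for CPC and 430 for MTOAC (213 higher, 217 lower, where the unscaled split was 95 and 690) and 182 for AEBDAC (96 higher, 86 lower, against 47 and 106). A filter of 5 TPM called 1 member for AEBDAC, Btg2 (adjusted p = 0.0407). With no filter 38 genes were called for AEBDAC, 404 for MTOAC and 1 each for AEBDAC and MTOAC against CPC. With only the groups compared the counts were 0 for CPC, 3 for AEBDAC and 17 for MTOAC, with 0 members, and 1 each for AEBDAC against CPC and MTOAC against AEBDAC. Without trend and robust options they were 1 for CPC and 75 for AEBDAC. The causes were not tested. Leaving out 1 library gave 1 to 5 genes for CPC, 9 to 104 genes and 0 to 1 members for AEBDAC, 149 to 573 genes and 0 to 1 members for MTOAC, and 0 to 1 genes for MTOAC against CPC. The test of the library number then called 3 to 6 members and 470 to 1091 genes, and these alternatives were chosen after seeing the data. TPM hold no depth, so counting error could not be set beside these values.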
